A study of Arabidopsis thaliana with 6 samples.

Results

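10 genes of the sugar-starvation response were followed through 6 leaf mRNA libraries of Arabidopsis thaliana. They were chosen by gene identifier from the 32947 genes listed, because earlier results had shown them lower in the mutants, so their levels against wild type are given as a description with no test. The 10 genes are BT2, PHI-1, DIN10, SEN1, ASN1, STP1, BXL1, AT5G22920, AT3G15630 and AT4G27450. In these data 9 of the 10 lay below both wild-type libraries in each of the 4 mutants, as did 7.53% of the 22362 genes tested, and ASN1 did not: it was highest in nrpe1. SEN1 and ASN1 had few reads in most libraries, and BT2 and PHI-1 had 5 to 18 reads in nrpe1 and idn2, where they were lowest.

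Wild type (WT, ecotype Columbia-0) had 2 libraries, and nrpe1-11, idn2 (allele idn2-1), a double mutant carrying idnl1-1 and idnl2-1, and a triple mutant that adds idn2-1 to that pair, had 1 each. All groups shared the Columbia-0 background, constant light and leaves at 3 weeks of age. RNA polymerase V has NRPE1 as its biggest subunit and IDN2 binds RNA, and both act in RNA-directed DNA methylation, the pathway in which small RNAs guide DNA methylation; IDNL1 and IDNL2 are relatives of IDN2. With 1 library per mutant no spread within a mutant can be given, the labels leave unsaid whether different plants gave the WT libraries, and all 4 mutants were set against the same WT pair.

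Levels are in RPKM, which divides reads by the kilobases of the gene's span, introns included, and by the size of the library. The values resolved into whole reads, 2737943 to 3078153 in WT replicate 1, nrpe1, idn2 and the triple mutant, while the double mutant (5819494) and WT replicate 2 (5975802) were deeper. Depth thus differed between the WT libraries, and the double mutant was about as deep as WT replicate 2. Genotype and depth cannot be told apart between the double mutant and the other mutants, while WT has a library near each depth. Summed RPKM of 4 leaf markers (RBCS1A, CAB1, LHCB2.1 and RCA) was 991 to 1049.6 in those 4 libraries and 583 (WT replicate 2) and 595 (double mutant) where depth was higher, all with reads. Over 7 floral markers the sum was 20.9 in nrpe1, 10.7 and 14.2 in WT and 6.58 to 8.44 in the other mutants, with none at 0 reads. Of 5 root markers 1 to 4 were at 0 reads in each library, and PYK10, the abundant one, had 14.5 RPKM in nrpe1 against 44.7 and 40.0 in WT. The part of these differences in the results was not tested. IDNL1 had 4.86 and 6.37 RPKM in WT, 0.187 with the triple and 0.316 with the double genotype, whereas NRPE1 (4.92 RPKM in nrpe1) and IDN2 (12.4 RPKM in idn2) still gave reads and do not check those labels. IDN2 also had 14.8 RPKM in the triple mutant, against 16.5 in the double mutant and 18.0 and 17.1 in WT. Its level thus does not check whether the triple library carries idn2-1.

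Leaves that run short of sugar, as in a long night, raise a set of genes that release carbon from cell walls, amino acids and stored compounds, and sugar lowers the same genes again. Several were found as dark-inducible (DIN) genes. The kinase SnRK1, whose catalytic subunits are KIN10 and KIN11, and bZIP transcription factors that bind ACGT-containing sites act upstream of many of them. In bulk leaf RNA, fewer cells with a transcript and less of it per cell cannot be told apart.

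Promoters are shown for BT2 and PHI-1, which varied most between mutants, for STP1, which varied least, and for ASN1, the exception. All 10 genes matched the RefSeq annotation of TAIR10.1 by locus tag, and each window runs from 250 bases before the annotated gene start to 50 bases after it, 5′ to 3′ on the gene's strand, with matches to 3 motifs in capitals, on either strand: the G-box (CACGTG), the TATCCA element and a short form of the evening element (AAATATCT).
BT2: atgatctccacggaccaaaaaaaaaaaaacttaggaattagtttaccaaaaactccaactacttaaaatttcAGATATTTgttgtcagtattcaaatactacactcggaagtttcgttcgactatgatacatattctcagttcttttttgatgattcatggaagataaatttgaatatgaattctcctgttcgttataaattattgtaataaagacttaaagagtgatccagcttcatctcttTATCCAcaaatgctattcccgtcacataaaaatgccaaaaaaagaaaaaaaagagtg
PHI-1: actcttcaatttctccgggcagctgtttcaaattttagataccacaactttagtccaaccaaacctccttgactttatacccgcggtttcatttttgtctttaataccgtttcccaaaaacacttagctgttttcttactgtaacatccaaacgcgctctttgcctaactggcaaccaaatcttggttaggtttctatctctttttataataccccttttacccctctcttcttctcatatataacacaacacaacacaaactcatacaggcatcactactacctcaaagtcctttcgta
STP1: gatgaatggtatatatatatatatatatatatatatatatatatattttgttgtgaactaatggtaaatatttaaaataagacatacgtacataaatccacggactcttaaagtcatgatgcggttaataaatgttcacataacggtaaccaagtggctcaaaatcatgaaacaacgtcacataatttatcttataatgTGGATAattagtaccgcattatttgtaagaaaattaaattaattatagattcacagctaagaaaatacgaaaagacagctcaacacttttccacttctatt
ASN1: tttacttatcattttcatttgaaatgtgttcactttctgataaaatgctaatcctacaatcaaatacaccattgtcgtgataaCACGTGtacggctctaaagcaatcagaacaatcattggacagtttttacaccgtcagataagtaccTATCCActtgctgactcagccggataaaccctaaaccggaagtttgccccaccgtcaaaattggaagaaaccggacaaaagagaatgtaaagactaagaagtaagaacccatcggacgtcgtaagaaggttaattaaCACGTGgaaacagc
In TAIR10.1 these windows lie at chr3:17910689-17910988 (minus strand), chr1:12851733-12852032 (plus), chr1:3776986-3777285 (plus) and chr3:17441382-17441681 (minus). TATCCA, a motif known from sugar-starved rice amylase promoters, was found on either strand in 6 of the 10 windows (BT2, SEN1, ASN1, STP1, AT3G15630 and AT4G27450) and in 16.1% of 27443 protein-coding promoters of the same length. The G-box was in 1 of 10, ASN1, with 2 copies, against 7.68% of all promoters. ACGT, which the G-box contains, was in 7 of 10 against 49.9%. GACGTC, which also contains ACGT, was in 1 of 10 (ASN1) against 2.88%. ACTCAT was in 3 of 10 (PHI-1, AT5G22920 and AT3G15630) against 14.7%, and AAATATCT in 1 of 10 (BT2) against 5.65%. The PHI-1 window held none of the capitalised motifs. A match describes the letters only and is no binding site.

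Together the 10 genes took 0.101% of the reads in WT replicate 1 (exact 95% binomial interval 0.0974 to 0.105) and 0.104% in WT replicate 2 (0.101 to 0.107). In nrpe1 they took 0.0364% (0.0343 to 0.0386), in idn2 0.0267% (0.0248 to 0.0286), in the triple mutant 0.0390% (0.0367 to 0.0414) and in the double mutant 0.0375% (0.0359 to 0.0391). Every mutant lay below both WT libraries, the WT libraries had nearly the same share despite their depths, and idn2 was the lowest. These intervals cover counting error only.

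**Figure D1:**
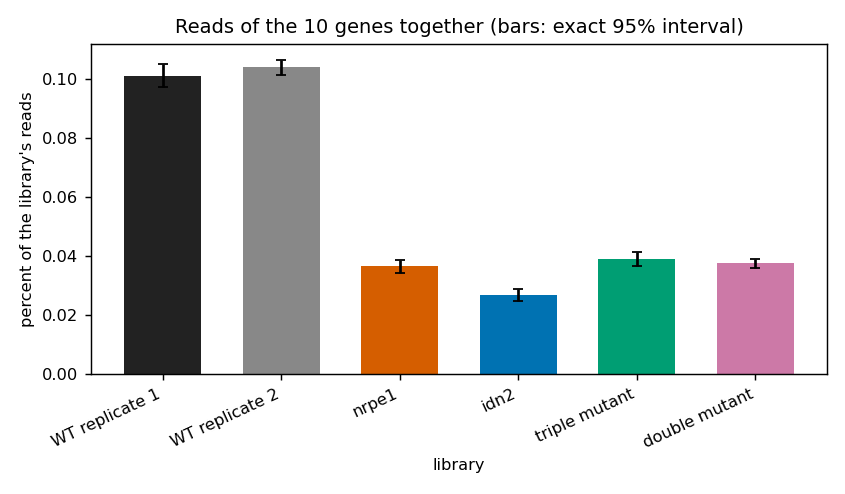
Reads of the 10 genes together as a percentage of all reads in each library, with exact 95% binomial intervals as error bars. The WT libraries stand at 0.101% and 0.104%, and the mutants between 0.0267% and 0.0390%.

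BT2 (AT3G48360, chromosome 3, 17919177 to 17921510 in TAIR8, as are all gene positions below, which may be off by 1 base) encodes a BTB and TAZ domain protein of sugar, nitrogen and hormone responses. Its level was 56.3 and 55.6 RPKM in the WT libraries (55.9 ± 0.522, SD, n = 2), 1.79 in nrpe1, 0.881 in idn2, 22.9 in the triple mutant and 13.5 in the double mutant. The 2 single mutants were thus at 3.20% and 1.58% of the WT mean, and the multiple mutants at 40.9% and 24.2%. In reads, nrpe1 had 12 and idn2 5 against 1141 in both WT libraries, ratios of 0.0298 (exact 95% interval 0.0153 to 0.0522) and 0.0132 (0.00429 to 0.0310).

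PHI-1 (AT1G35140, chromosome 1, 12851975 to 12853106), also called EXL1, is an EXORDIUM-like protein needed for growth when carbon is short. It had 97.0 and 95.9 RPKM in WT (96.5 ± 0.752, SD, n = 2), 3.69 in nrpe1, 5.76 in idn2, 76.6 in the triple mutant and 49.7 in the double mutant. The single mutants kept 3.83% and 5.97% of the WT mean, while the triple mutant kept 79.4% and the double mutant 51.5%. It was the most abundant of the 10 per kilobase of span in WT and in the triple and double mutants. With 0.576 reads per base in WT replicate 2 it stayed below the 1.37 to 1.56 reads per base at which the densest gene of each library stood.

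STP1 (AT1G11260, chromosome 1, 3777328 to 3780337), a proton-coupled hexose importer of the plasma membrane, had almost one level in all mutants. WT held 62.1 and 63.1 RPKM (62.6 ± 0.692, SD, n = 2), and nrpe1, idn2, the triple and the double mutant held 27.8, 28.7, 27.0 and 28.3. That is 43.2% to 45.8% of the WT mean, a range of 0.08 on the log2(RPKM + 1) scale over the 4 mutants. BXL1 (AT5G49360, chromosome 5, 20029105 to 20033968), a beta-xylosidase of the cell wall, had 52.3 and 50.8 RPKM in WT, 24.8 in nrpe1, 20.6 in idn2, 17.0 in the triple mutant and 18.4 in the double mutant. It too lay within a narrow band, at 33.0% to 48.1% of WT.

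DIN10 (AT5G20250, chromosome 5, 6833680 to 6836790), a raffinose synthase family gene, had 56.4 and 61.0 RPKM in WT, 22.3 in nrpe1, 9.15 in idn2, 13.6 in the triple mutant and 15.4 in the double mutant. Here idn2 was the lowest library and nrpe1 the highest of the mutants, at 15.6% and 38.0% of WT. ASN1 (AT3G47340, chromosome 3, 17448869 to 17452228) makes asparagine from glutamine and is a standard marker of darkness and SnRK1 activity. It was near the limit of detection, with 0.537 and 1.14 RPKM in WT, 1.63 in nrpe1, 0.612 in idn2, 0.421 in the triple mutant and 0.560 in the double. Those values rest on 4 and 22 reads in WT and on 16, 5, 3 and 10 in the mutants in that order. Only the triple mutant lay below both WT libraries; the read ratio in nrpe1 was 1.74 (exact 95% interval 0.873 to 3.37), and no difference of ASN1 was detectable at this depth.

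SEN1 (AT4G35770, chromosome 4, 16944946 to 16946197), also DIN1, is a rhodanese-like protein induced by dark and senescence. WT gave 4.90 and 7.98 RPKM, and the mutants 2.83 in nrpe1, 1.64 in idn2, 0.848 in the triple mutant and 1.23 in the double mutant. The groups did not overlap, but the mutants had 10, 5, 2 and 8 reads, and the WT libraries differed by 0.61 on the log2(RPKM + 1) scale. The read ratio was 0.0832 in the triple mutant (0.00989 to 0.311) and 0.377 in nrpe1 (0.174 to 0.733).

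AT5G22920 (chromosome 5, 7664994 to 7667268), which encodes the RING zinc-finger protein RZPF34, had 20.3 and 24.2 RPKM in WT, 9.89 in nrpe1, 5.28 in idn2, 5.44 in the triple mutant and 7.96 in the double. AT3G15630 (chromosome 3, 5296854 to 5297606), an uncharacterised protein in the reference, had 45.1 and 49.6 RPKM in WT, 20.5 in nrpe1, 10.03 in idn2, 12.2 in the triple mutant and 27.7 in the double. AT4G27450 (chromosome 4, 13727490 to 13728892), annotated as an aluminium-induced protein with YGL and LRDR motifs, had 40.9 and 46.3 RPKM in WT, 24.8 in nrpe1, 14.4 in idn2, 12.9 in the triple mutant and 15.5 in the double mutant. In these 3 genes idn2 and the triple mutant were the 2 lowest libraries. The span of none of the 10 genes overlapped that of another listed gene.

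**Figure D2:**
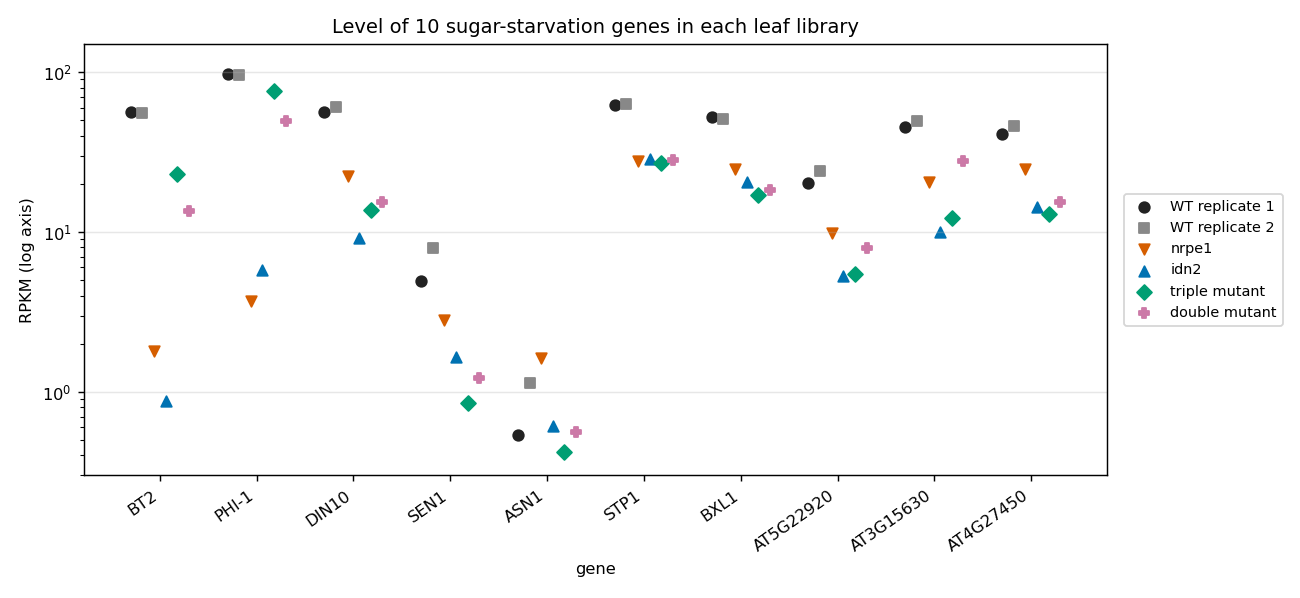
RPKM on a log axis for each of the 10 genes, 1 point per library. BT2 and PHI-1 drop far below the other libraries in nrpe1 and idn2 (0.881 to 5.76 RPKM), STP1 sits at 27.0 to 28.7 RPKM in all 4 mutants, and ASN1 has mutant and WT points intermixed.

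On the log2(RPKM + 1) scale, which understates the change of low genes, the median change of the 10 genes was -1.12 in nrpe1, -1.71 in idn2, -1.61 in the triple mutant and -1.40 in the double. Over all 22362 genes tested the medians were 0.02, -0.02, -0.05 and 0.04. At least 2-fold below both WT libraries on this scale were 6 members in nrpe1, 9 in idn2, 8 in the triple mutant and 7 in the double. Among all genes tested 2.13%, 1.49%, 0.595% and 0.335% met that rule, and in all 4 mutants 4 members (BT2, DIN10, STP1 and BXL1) and 0.0805% of genes did; nothing is read from this, since the members were chosen for it. Simply below both WT libraries were 9 members in nrpe1 (34.2% of all genes tested), 9 in idn2 (35.7%), 10 in the triple mutant (39.2%) and 9 in the double (20%). The changes ran from -4.92 (BT2 in idn2) to 0.53 (ASN1 in nrpe1).

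**Figure D3:**
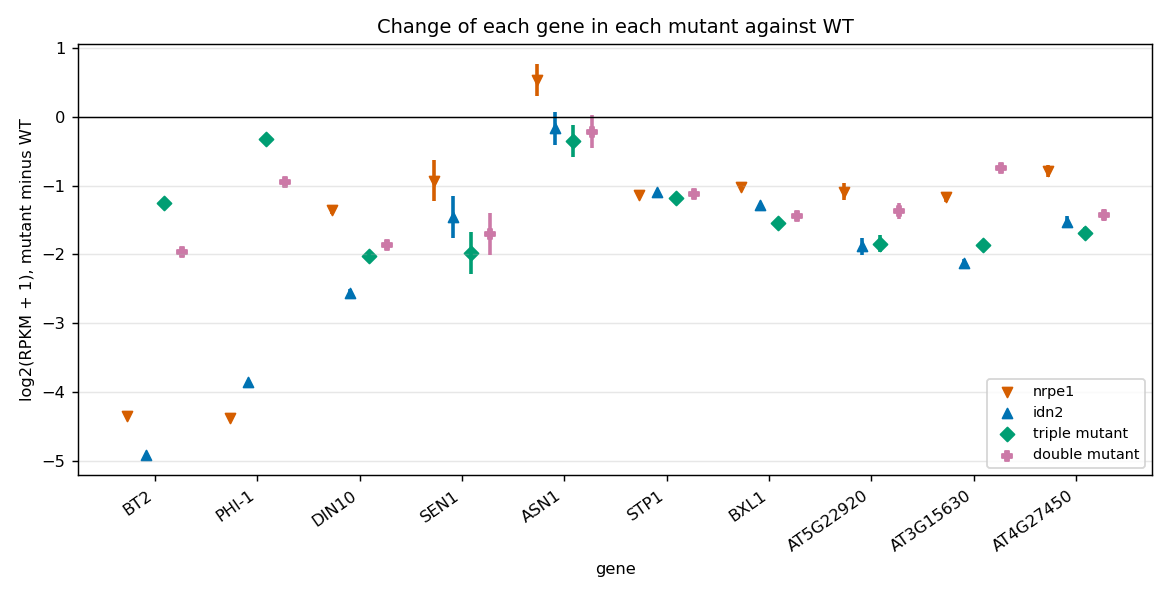
Change of each gene in each mutant on the log2(RPKM + 1) scale; points are the difference from the WT mean and vertical lines span the differences from the 2 WT libraries. BT2 and PHI-1 changed by -3.85 to -4.92 in nrpe1 and idn2, and the other genes lie between -2.56 and 0.53.

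Differences between mutants were not used to choose the genes and were tested, with limma across all genes in 4 pairs, which share libraries and take their spread from the WT pair. The choice did use levels in these same mutant libraries, so the p-values are not independent of it. BT2 and PHI-1 were far lower in both single mutants than in the triple mutant, which by its label carries idn2-1 as well. The BT2 difference on the log2(RPKM + 1) scale was -3.10 for nrpe1 (SE 0.38, limma adjusted p = 2.69e-13) and -3.67 for idn2 (SE 0.38, limma adjusted p = 1.92e-18). For PHI-1 it was -4.05 (SE 0.25, limma adjusted p = 1.23e-54) and -3.52 (SE 0.25, limma adjusted p = 1.4e-40). The nrpe1, idn2 and triple mutant libraries had similar depth.

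AT4G27450 went the other way: it was higher in nrpe1 than in the triple mutant, by 0.89 (SE 0.27, limma adjusted p = 0.0432). That made 3 members called between nrpe1 and the triple mutant (1.98% of all genes tested were called, 1.42% lower and 0.563% higher) and 2, both lower, between idn2 and the triple mutant (0.814%, of which 0.666% lower and 0.148% higher). The AT4G27450 call was lost with no filter on low values and with voom, limma's method for counts, where adjusted p over the alternatives ran from 0.000546 to 0.56.

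DIN10 was the 1 member called between the single mutants, higher in nrpe1 than in idn2 by 1.20 (SE 0.27, limma adjusted p = 0.00262), where 0.528% of all genes tested were called, 0.3% higher and 0.228% lower. With voom this call was lost (adjusted p = 0.0797). AT3G15630 was the 1 member called between the double and the triple mutant, higher in the double by 1.12 (SE 0.26, limma adjusted p = 0.0419), against 0.0581% of all genes tested. These libraries differ in depth, the median over all genes in this pair was 0.13, and the call was lost with quantile normalization, with no filter and with voom.

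For STP1 the differences were -0.05 (95% interval -0.53 to 0.44) between nrpe1 and idn2, 0.04 (-0.45 to 0.53) between nrpe1 and the triple mutant, 0.08 (-0.41 to 0.57) between idn2 and the triple mutant and 0.07 (-0.42 to 0.55) between the double and the triple mutant. These intervals hold no difference above 0.57 in either direction, but they rest on the spread of the WT pair and cover no spread within a mutant. BXL1, SEN1, ASN1 and AT5G22920 passed in none of the 4 pairs by limma.

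**Figure D4:**
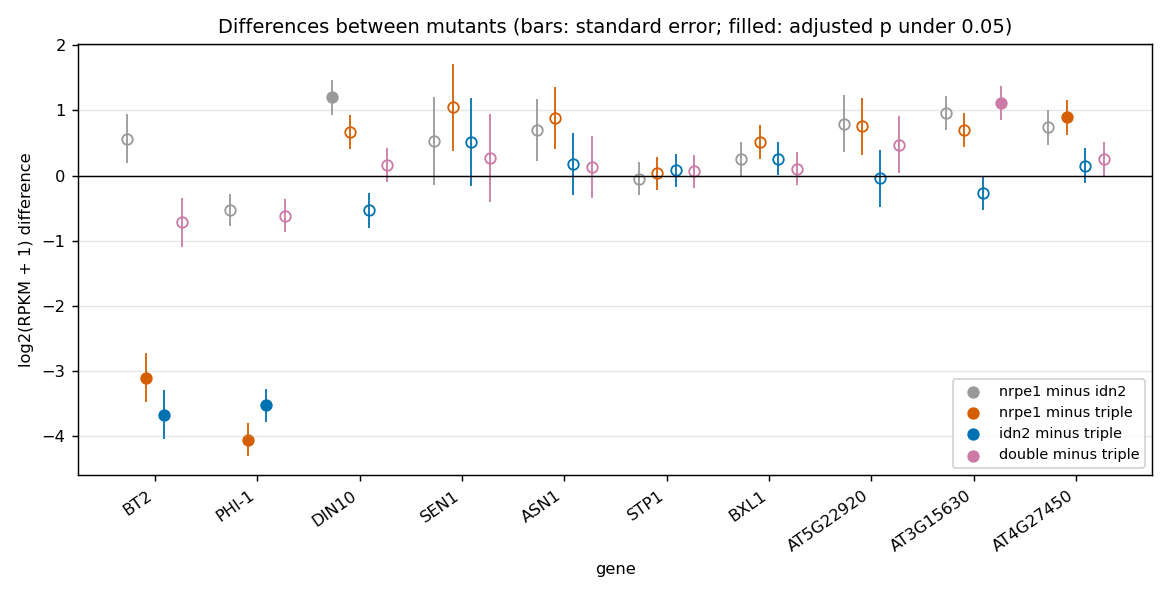
Differences of log2(RPKM + 1) between pairs of mutants for each of the 10 genes, with standard errors from limma; filled points have an adjusted p under 0.05. BT2 and PHI-1 lie at -3.10 to -4.05 for either single mutant minus the triple mutant, and STP1 lies within 0.08 of 0 in all 4 pairs.

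Other known genes of the low-energy response fell in part as well. By limma adjusted p more of them passed in the single than in the multiple mutants, a difference that was not tested. At an unadjusted p under 0.05 the numbers were close, as given below. This list and those below were drawn up with earlier results of these data known, so their counts are no independent test. Of 30 such genes 29 could be tested, and DIN2 stayed under the level filter. The other DIN genes of this list, DIN3, DIN4, DIN9 and DIN11, passed limma in no mutant. GDH1, GDH2, BCAT2, MCCA, MCCB and IVD did not pass either. By limma 9 of the 29 fell in nrpe1, where 2.59% of all genes tested fell, 8 in idn2 (1.41%), 3 in the triple mutant (0.228%) and 3 in the double mutant (0.157%). At an unadjusted p under 0.05, 12 were lower in nrpe1, 15 in idn2, 11 in the triple mutant and 12 in the double mutant. None rose by limma in any mutant, where 0.666%, 0.246%, 0.0715% and 0.188% of all genes tested rose; at an unadjusted p under 0.05 1 was higher in nrpe1 and 0 in the others, and voom called 1 in nrpe1 and 0 elsewhere. With median-of-ratios scaling 11 fell in nrpe1, 11 in idn2, 9 in the triple and 8 in the double genotype, and with voom 8, 8, 2 and 6 in the same order. By size alone, without WT replicate 1, 7 and 9 were at least 2-fold lower in the triple and the double mutant, and without WT replicate 2, 5 and 4. The list medians were -0.65, -0.76, -0.44 and -0.33 in nrpe1, idn2, the triple and the double mutant.

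TPS8, TPS11 and AT3G15450 fell in all 4 mutants. TPS8 and TPS11 belong to the class of trehalose-phosphate synthase proteins that respond to sugar. TPS8 had 77.1 and 78.1 RPKM in WT, 18.2 in nrpe1, 20.7 in idn2, 38.3 in the triple mutant and 34.5 in the double, changes of -2.03, -1.86, -1.001 and -1.15 (limma adjusted p = 4.73e-18, 6.97e-15, 0.00284 and 9.4e-05). TPS11 had 98.0 and 100.9 RPKM in WT and 25.2, 29.3, 41.0 and 41.6 in the mutants in the same order. Its change was -1.94, -1.73, -1.26 and -1.24. As in BT2 and PHI-1, the single mutants were lower than the multiple ones. This order is a description.

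AT3G15450, which shares the YGL and LRDR motif annotation of AT4G27450, had 94.6 and 87.2 RPKM in WT, 53.1 in nrpe1, 14.8 in idn2, 44.8 in the triple mutant and 41.8 in the double. It fell by 2.54 in idn2 (limma adjusted p = 5.1e-26) and by 0.76 in nrpe1 (limma adjusted p = 0.0258), and the latter call was lost with no filter and with voom; with voom its call in the triple mutant was lost as well. As in DIN10, idn2 was the lowest library.

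KMD1, a kelch-repeat F-box gene, bZIP1, a transcription factor of the starvation response, TPS9, and the PHI-1 relatives EXL2 and EXL4 fell in nrpe1 and idn2 and did not pass in the triple or double mutant. With voom neither call of EXL4 was kept, and with no filter its call in idn2 was lost. KMD1 had 155 and 138 RPKM in WT, 15.6 in nrpe1, 31.6 in idn2, 117 in the triple mutant and 94.0 in the double, changes of -3.15, -2.18, -0.32 and -0.64. bZIP1 had 30.3 and 41.9 RPKM in WT, 9.22 and 8.32 in nrpe1 and idn2, and 18.4 and 19.2 in the triple and double mutants. Its changes there were -0.92 and -0.86 (limma adjusted p = 0.0853 and 0.164). TPS9 had 18.3 and 22.9 RPKM in WT, 6.10 in nrpe1, 8.18 in idn2, 9.77 in the triple mutant and 9.44 in the double. In the triple and double mutants it changed by -0.996 and -1.04 (SE 0.35, limma adjusted p = 0.494 and 0.435). Those sizes are close to the -1.001 and -1.15 of TPS8, which passed, so a missing call is not a missing change. The ninth gene that fell in nrpe1 was BAM9, a beta-amylase family gene, named after its value was seen, with a change of -1.42.

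PRODH1, the first enzyme of proline breakdown, was also named after its values were seen. It had 14.6 and 17.3 RPKM in WT, 28.5 in nrpe1, and 8.14, 8.26 and 8.50 in idn2, the triple and the double mutant. Its change in nrpe1 was 0.81 (limma adjusted p = 0.24), with an adjusted p of 0.00162 under median-of-ratios scaling, 0.0179 under quantile normalization and 0.0348 with voom. In the nrpe1 library the summed floral markers, given above, were also the highest, and their part in this value was not tested.

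**Figure D5:**
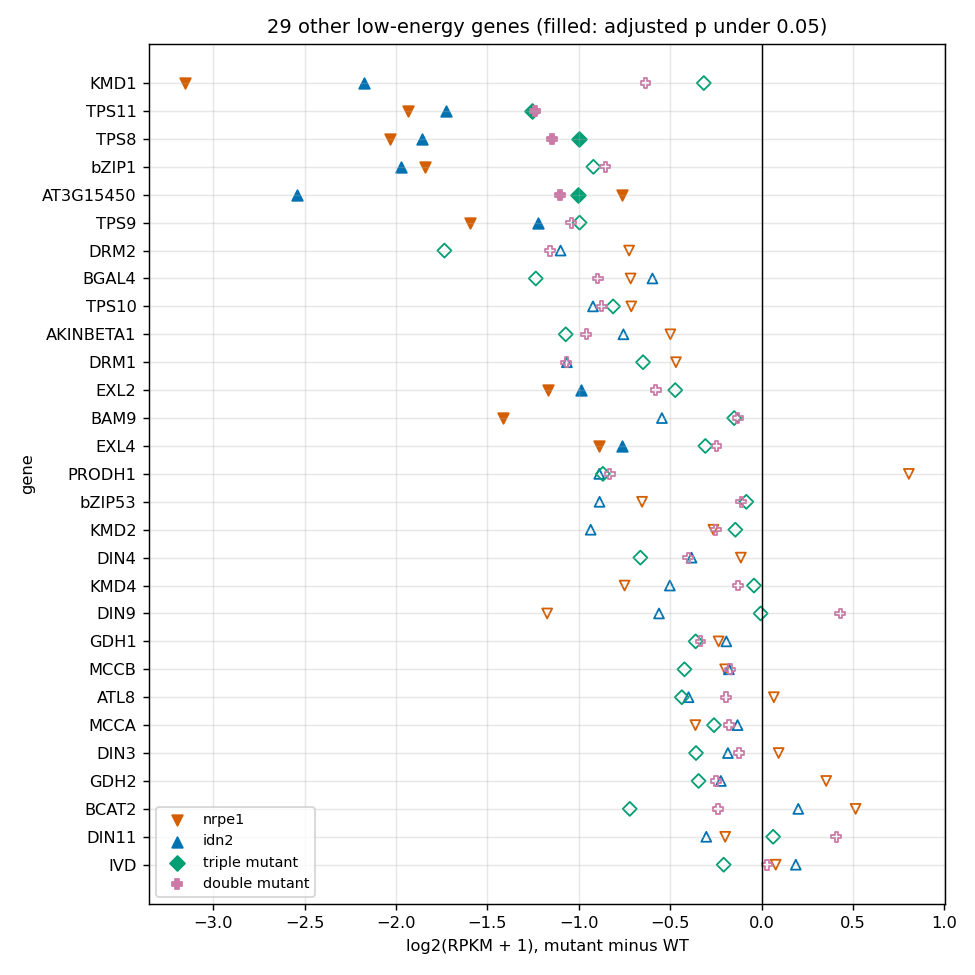
Change of 29 other low-energy genes in each mutant on the log2(RPKM + 1) scale, ordered by their mean change; filled points have a limma adjusted p under 0.05. KMD1 reaches -3.15 in nrpe1, TPS8, TPS11 and AT3G15450 are filled in all 4 mutants, and PRODH1 lies at 0.81 in nrpe1.

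Several relatives of BT2 and PHI-1 fell in nrpe1 and idn2. Of 44 relatives, 35 could be tested, and 8 fell in nrpe1 (2.59% of all genes tested fell), 8 in idn2 (1.41%), 1 in the triple mutant (0.228%) and 2 in the double (0.157%) by limma, with none higher by limma or voom and 0 higher at an unadjusted p under 0.05. Every one that fell by limma was a BT gene, EXO, an EXORDIUM-like gene or AT3G15450, and AT3G15450, EXL2 and EXL4 were already counted among the low-energy genes. BT5 had 29.3 and 35.5 RPKM in WT, 5.84 in nrpe1, 5.68 in idn2, 26.1 in the triple mutant and 33.3 in the double, with changes of -2.28 and -2.32 in the single mutants. BT1 changed by -1.94 and -1.02 in nrpe1 and idn2, and BT4 by -1.18 and -1.62; BT4 also changed by -0.82 in the double mutant (limma adjusted p = 0.0419), a call lost with a pseudocount of 0.25 and with no filter.

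EXO, the founding EXORDIUM gene of cell expansion, had 197 and 153 RPKM in WT, 52.9 in nrpe1, 46.9 in idn2, 175 in the triple mutant and 118 in the double mutant. The lower WT value is that of the deeper WT library, and the double mutant library was deep as well. EXO changed by -1.69 and -1.86 in the single mutants, and EXL5 by -1.08 and -1.12; under median-of-ratios scaling neither gene passed. By limma with the settings used here no relative of STP1, BXL1, ASN1, SEN1 or DIN10 passed in any mutant. The DIN10 relatives RFS5 and RFS2, named after their values were seen, passed under other scalings: RFS5 in nrpe1 (-0.68, limma adjusted p = 0.0531) had an adjusted p of 0.00689 with median-of-ratios scaling and 0.0261 with quantile normalization. RFS2 differed by -0.62 in idn2 and in the double mutant (limma adjusted p = 0.182 and 0.548), with 0.0321 and 0.00801 under median-of-ratios scaling. STP4, another hexose importer, had 41.5 and 43.7 RPKM in WT and 29.2 to 36.7 in the mutants, and ASN2, the asparagine synthetase with most reads here, 48.9 and 44.4 against 49.2 to 61.2. Identical stretches could share reads between relatives, and how such reads were assigned is not stated in the labels.

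Upstream regulators in a list of 19 genes showed no call. The transcription factors bZIP1 and bZIP53 were counted among the low-energy genes instead. There bZIP1 fell in nrpe1 and idn2 (-1.84 and -1.97), and bZIP53 passed limma in no mutant. The 19 include KIN10, KIN11, 2 beta subunits, the gamma subunits, other bZIP genes, hexokinase HXK1, TPS1 and TOR. Of the 19 genes, 0 passed limma in any mutant and voom called 0. At an unadjusted p under 0.05, 2 were past in nrpe1, 2 in idn2, 2 in the triple mutant and 1 in the double mutant. KIN10 had 15.2 and 18.2 RPKM in WT and 14.5 to 19.9 in the mutants. bZIP63, a target of SnRK1 named after its values were seen, had 28.3 and 30.1 RPKM in WT and 17.8, 19.4, 15.4 and 17.9 in nrpe1, idn2, the triple and the double mutant. Its changes were -0.68, -0.56, -0.88 and -0.68 (limma adjusted p = 0.114, 0.524, 0.0698 and 0.569). The beta subunit AKINBETA1, counted among the low-energy genes and likewise named after its values were seen, had 18.1 and 19.6 RPKM in WT and 13.0, 10.7, 8.44 and 9.20 in the same order. Its changes of -0.50 to -1.07 did not pass limma.

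Among 11 genes that sugar raises, BAM5, a beta-amylase, fell in idn2, the triple and the double mutant and UF3GT, of anthocyanin synthesis, in nrpe1 (-0.88, limma adjusted p = 0.0116), a call lost with voom. That is 1 of 11 in each mutant, where 2.59%, 1.41%, 0.228% and 0.157% of all genes tested fell in nrpe1, idn2, the triple and the double mutant. BAM5 had 31.3 and 30.9 RPKM in WT, 15.9 in nrpe1, 4.92 in idn2, 9.94 in the triple mutant and 6.76 in the double, changes of -0.93 (limma adjusted p = 0.0829), -2.44, -1.55 and -2.05. BAM5 moved in the same direction as most of the starvation genes. GPT2, of the same list and named after its values were seen, had 6.34 and 7.84 RPKM in WT. It had 6.75 in nrpe1, 2.94 in idn2, 14.7 in the triple mutant and 17.9 in the double mutant. Its changes of -0.06, -1.03, 0.96 and 1.23 did not pass limma. None of the 11 rose by limma; at an unadjusted p under 0.05 1 was higher in the triple mutant and 1 in the double mutant, and voom called 1 higher in the double mutant.

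Of 18 tested genes of leaf senescence and autophagy, 3 fell in nrpe1 (NAP, ORE1 and WRKY53; 2.59% of all genes tested fell), 1 in idn2 (WRKY53; 1.41%) and 0 in the triple (0.228%) or double mutant (0.157%) by limma or voom; at an unadjusted p under 0.05 3 and 5 were past there. NAP and ORE1, transcription factors that drive leaf senescence, had 9.53 and 7.87 RPKM in nrpe1 against 27.3 and 33.1, and 21.8 and 27.6, in WT. WRKY53 had 11.2 and 11.3 RPKM in nrpe1 and idn2 against 29.3 and 35.1. The 9 ATG8 genes of autophagy passed in no mutant.

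By likeness over the 6 libraries, the genes outside the list whose log2(RPKM + 1) followed the mean profile of the 10 most closely were AT1G52140, AT1G11380, HIR2, CRK41, AT1G12450, AT2G15880, PAR1 and AT2G17880. Their Pearson r was 0.974 to 0.996 over 6 libraries, among 1400 genes with a mean of at least 5 RPKM and a range of at least 1 log2 unit. AT1G52140 had 23.1 and 24.7 RPKM in WT and 13.4, 10.4, 13.9 and 15.6 in nrpe1, idn2, the triple and the double mutant. CRK41, a cysteine-rich receptor-like kinase, had 17.1 and 18.3 RPKM in WT and 6.51, 6.10, 9.23 and 8.60. The 6 libraries include the WT pair and 2 depths, and r is a description. Within the 10 genes, r with the mean of the other 9 was 0.943 for DIN10, 0.928 for STP1, 0.626 for PHI-1 and 0.0361 for ASN1.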

How the data were processed

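RPKM tables for 32947 genes in 6 libraries were used as deposited. Per the submitters' processing notes reads were aligned with Bowtie, with no version named; the deposited tables name TAIR8. In each library 100% of the RPKM values, times the gene's span, were whole multiples of 1 step (tolerance 1e-06 steps), with a lowest multiple of 1; that was read as 1 added read per gene, whose origin is not stated, and taken off for read numbers. Positions were read as 0-based and 1 was added.

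Tests used log2(RPKM + 1) in limma 3.58.1 (R 4.3.3), a mean per genotype with an intensity trend, for the 22362 genes reaching 1 RPKM in 1 library or more, and Benjamini-Hochberg adjustment over all of them at 0.05. The WT pair gives 1 residual degree of freedom and the prior degrees of freedom were infinite, so each gene's spread is that of the trend, each mutant is assumed to vary as WT does, and p-values speak of these samples' spread alone, which may be technical. The limma step was also run on simulated data in which every library had the same kind of noise. That run cannot check whether a mutant varies as WT does. Alternatives were a pseudocount of 0.25, median-of-ratios scaling, quantile normalization, no level filter, voom on recovered reads and each WT library left out. Python 3.11.15 with scipy 1.17.1 gave intervals, and TAIR10.1 gave symbols and promoters.

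The genes and lists were chosen with earlier results of these data known. Named from each list were up to 12 genes called in at least 2 mutants (or in 1 where fewer than 3 were), ranked by largest change, and the 8 genes most like the members' mean profile. Strand was not used.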

Additional observations from a re-analysis of the deposited data

How the results depend on the processing

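The number of members at least 2-fold below both WT libraries stayed within 1.5 times under a pseudocount of 0.25, median-of-ratios scaling and quantile normalization: 5 to 7 in nrpe1, 8 to 9 in idn2, 8 in the triple mutant and 7 in the double; with 1 WT library left out it was 6 to 8, 9, 8 and 7. Of the member changes against WT, that of ASN1 ran from -0.41 to 0.0687 in idn2 and from -0.46 to 0.0208 in the double mutant with 1 WT library left out, positive without WT replicate 2, where the remaining WT library has 4 reads. Other low-energy genes called lower in the triple mutant numbered 9 with median-of-ratios scaling in place of 3, and in the double mutant 8 with that scaling, 8 with quantile normalization and 6 with voom in place of 3; by size alone, with 1 WT library left out, 5 to 7 were at least 2-fold lower in the triple mutant and 4 to 9 in the double. One gene, PRODH1, was called higher in nrpe1 with median-of-ratios scaling, quantile normalization and voom (1 each, against 0). Members called between nrpe1 and idn2 were 3 with median-of-ratios scaling and 0 with voom in place of 1, between nrpe1 and the triple mutant 5 with median-of-ratios scaling in place of 3, and between the double and the triple mutant 0 with quantile normalization, no filter or voom in place of 1. The cause was not tested. BT2 and PHI-1 kept their calls against the triple mutant in all 5 alternatives, with adjusted p up to 2.31e-05. The median of all genes moved by over 0.1 for the double minus the triple mutant alone, by -0.14, -0.12 and -0.16 with median-of-ratios scaling, quantile normalization and no filter. Leaving out a WT library leaves no residual degrees of freedom, so those values have no test, and no difference between mutants was refitted that way: its size does not use the WT values, but its SE and p rest on the spread of the WT pair. No paired analysis was possible because each mutant has 1 library. Depth limits SEN1 and ASN1, with 2 to 59 reads a library, and BT2 and PHI-1 in nrpe1 and idn2, with 5 to 18.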
